A study of Mus musculus with 30 samples.

Results

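Interferon-stimulated genes are the genes that cells switch on when interferons bind their receptors, and this group of 36 listed genes was followed here through the lungs of mice kept in low oxygen. A gene counted as measured where a probe set, the group of probes that reads 1 transcript, carried its symbol alone. Of the 36 genes, 34 had such a probe set, with 48 probe sets among 36701 in all, and Oas1a and Ifi44 had none. RNA came from whole mouse lung, with 2 samples, lettered 1a and 1b, in each of 5 groups. The groups were 10 h, 2 d, 4 d and 6 d in a chamber with 10% oxygen, a treatment used to raise pulmonary pressure, and a comparison group that the titles call Norm, a word they leave unexplained. The text attached to the Norm samples mentions a rejection, which belongs to transplantation. Strain, genotype, sex and age are not in the labels, and no label says whether 1a and 1b are different animals, so the p-values may reflect technical spread alone.

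Type I interferons (alpha and beta) act through JAK kinases on a complex that holds STAT2 and IRF9 and binds a promoter element called the ISRE. Type II interferon (gamma) acts on another element, the GAS, and both routes also induce further transcription factors such as IRF1 and IRF7. The products block viral entry, replication and translation, sense viral RNA, attach the ubiquitin-like ISG15 to other proteins, and load peptides for T cells. In lung, epithelium, endothelium and resident macrophages all make this response.

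Each sample was read on 3 array types (A, B and C) with different probe sets, as 1 intensity per probe set. A floor was placed at the 40th percentile of each type (A 236.05, B 297.36, C 200.93), dimmer values were raised to it, and 25801 probe sets that exceeded it on at least 2 arrays were tested. Among them were 43 member probe sets for 32 genes, and 1 probe set per gene was used on A and 1 on B and C together, giving 39 measurements (25 on A, 14 on B and C, 7 genes on both). Array A held only 1 usable Norm array, labelled 1b, because the array titled Norm 1a of type A stands in the table of B values and did not correlate with the B arrays (Spearman correlation at most 0.00963). Some arrays went against their labels. Over 1303 genes present on both types, and set against the group labels, A and B arrays of 10 h correlated at 0.105 to 0.216, those of 2 d at 0.144 to 0.185 and those of 6 d at 0.0491 to 0.0865 (Pearson correlation of deviations, a description that shares array scaling). The A array labelled Norm 1b correlated at 0.166 and 0.115 with the B arrays of 4 d but at 0.00397 and 0.0170 with those of Norm, and the A array labelled 4 d 1a correlated at 0.121 with Norm 1a on B and at -0.0265 and -0.0284 with 4 d. The B array labelled Norm 1b correlated at 0.101 and 0.110 with both 10 h arrays on A. The A array labelled 6 d 1b correlated at 0.0885 and 0.106 with the 2 d arrays on B, against 0.0845 and 0.0491 with those of 6 d. Several results that use the Norm 1b and 4 d 1a samples are therefore given also without them. No A value against Norm can be had without Norm 1b. The 2 d arrays had a 3'/5' signal ratio for Gapdh, a sign of shortened RNA, of 3.64 to 4.60 against 0.786 to 1.68 in all other arrays. The lung markers were present in every sample, with the 8 alveolar epithelial markers on A, such as Sftpc and Sftpb, summing to between 45500 and 128482 intensity units.

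Some promoters of the group hold letters of the element through which type I interferon acts. Shown are 6 stretches that hold them, 5 because both 10 h arrays of their genes lay above all later arrays. That of Irgm2, whose 10 h arrays did not, is shown for comparison with its neighbour Igtp. Promoters of RefSeq (build GRCm38.p6, 250 bases before to 50 after each start site) were matched for 31 of the 36 genes, with 36 promoters. The core of the ISRE, searched as GAAANNGAAA on both strands, stood in 19 of these 36 promoters, against 3.44% of all 32851 promoters of the same length. The GAS element, searched as TTCNNNGAA, stood in 10 of the 36, against 8.30% of all. Each of the following stretches of 100 bases is printed in the direction of its gene, with matches to the ISRE core on either strand in capitals and overlapping matches run together. They come from Isg15 (chr4:156200836-156200935, minus strand), Ifit1 (chr19:34640749-34640848, plus strand), Ifit3 (chr19:34583345-34583444, plus strand), Gbp3 (chr3:142559944-142560043, plus strand), Igtp (chr11:58199456-58199555, plus strand) and Irgm2 (chr11:58214868-58214967, plus strand), all before the start site.
Isg15: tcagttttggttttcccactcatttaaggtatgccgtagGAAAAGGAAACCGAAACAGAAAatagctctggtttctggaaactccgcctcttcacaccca
Ifit1: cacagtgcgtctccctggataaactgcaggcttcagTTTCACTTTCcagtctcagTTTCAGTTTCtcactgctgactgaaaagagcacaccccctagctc
Ifit3: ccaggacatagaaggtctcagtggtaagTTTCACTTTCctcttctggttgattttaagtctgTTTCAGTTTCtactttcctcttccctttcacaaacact
Gbp3: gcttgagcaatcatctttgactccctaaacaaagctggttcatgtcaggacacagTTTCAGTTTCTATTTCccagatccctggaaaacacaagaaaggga
Igtp: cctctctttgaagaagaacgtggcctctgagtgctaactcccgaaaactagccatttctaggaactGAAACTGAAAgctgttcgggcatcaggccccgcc
Irgm2: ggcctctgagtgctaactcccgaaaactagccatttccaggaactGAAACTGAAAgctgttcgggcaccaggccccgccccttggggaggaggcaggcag

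Isg15 held 3 overlapping matches, the first at base -78 from the start site. Ifit1 and Ifit3 each held 2 separate matches, at -104 and -85 and at -156 and -122. Gbp3 held 2 overlapping matches, at -45 and -39. Igtp and Irgm2, neighbours on chromosome 11 that encode related GTPases, had 77 of 79 bases in common when both stretches were aligned on their single match. Stat2 held 1 match at -222 and Rsad2 1 at -120. The ISRE core was not in the windows of Irf7, Irf9, Oasl1 or Oasl2. It was also absent from those of Irf1, Ifit2, Ifi35, Ifi44, Psmb8, Psmb9, Tap1, Xaf1 and Cxcl9 and from a second promoter of Gbp3. Of these genes, Irf1, Ifit2, Ifi35 and Psmb8 each held a match to the GAS in 1 promoter. In all, 18 of the 31 genes had a match to the ISRE core. A match describes letters and no binding was measured here.

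Among the low-oxygen groups the interferon-stimulated genes as a set stood highest at 10 h, low at 2 d and 4 d and in between at 6 d, on both sets of arrays. The mean deviation of the 25 members on A, in log2 units from the low-oxygen mean, was 0.48 and 0.33 in the 10 h samples, -0.30 and -0.34 at 2 d, -0.14 and -0.28 at 4 d, 0.16 and 0.09 at 6 d, and -0.25 in the array labelled Norm 1b. For the 14 members on B and C it was 0.39 and 0.29 at 10 h, -0.30 and -0.22 at 2 d, -0.11 and -0.21 at 4 d, and 0.05 and 0.11 at 6 d. The Norm samples parted, with -0.11 in Norm 1a and 0.45 in Norm 1b. The pooled SD within groups was 0.0758 on A and 0.186 on B and C. In whole lung, fewer cells of a type and less RNA per cell cannot be told apart in any of these values.

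**Figure D1:**
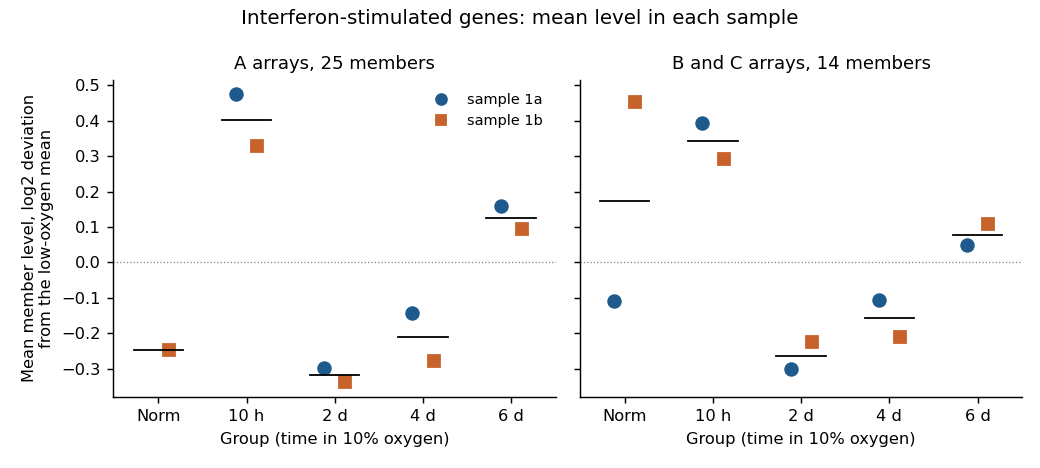
Mean level of the members in every sample (y axis, log2 deviation from the mean of the low-oxygen groups) by group (x axis), for 25 members on the A arrays and 14 on the B and C arrays; circles are samples 1a, squares samples 1b and lines group means. On both sets of arrays the 10 h samples lie above the 2 d, 4 d and 6 d samples, and the Norm samples on B and C lie apart at -0.11 and 0.45.

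Among the transcription factors that carry the signal, Irf7, Irf9 and Stat2 were high at 10 h and Irf1 was not. Irf7 amplifies the response by switching on further interferon genes. On A its intensity was 1298 and 1101 at 10 h, 237 and 331 at 2 d, 296 and 425 at 4 d, 678 and 686 at 6 d, and 307 in the Norm array. Both 10 h arrays lay above all others, and both 6 d arrays above all of 2 d, 4 d and Norm. On C a second Irf7 probe set, with a suffix for probes that other transcripts may share, read 24513 and 24682 at 10 h, 8037 and 5423 at 2 d, 6675 and 7077 at 4 d, and 11117 and 13383 at 6 d. As on A, 10 h was the highest and 6 d the next, with 2 d and 4 d overlapping, and its Norm samples read 7502 (1a) and 25494 (1b). The other tested Irf7 probe set on A, also suffixed, read 605 and 602 at 10 h, 412 and 446 at 2 d and 437 and 256 at 4 d, but its highest value, 769, was in 6 d 1b.

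Irf9, the DNA-binding partner of STAT2, read 3648 and 2940 at 10 h, 1817 and 1518 at 2 d, 1353 and 2169 at 4 d, 2301 and 1933 at 6 d and 1642 in Norm. Only the 10 h arrays stood clear of the rest, which overlapped. Stat2, the STAT specific to type I and III interferon, read 3313 and 2339 at 10 h, 863 and 866 at 2 d, 959 and 1001 at 4 d and 1287 and 1456 at 6 d, with 1221 in Norm 1a and 3143 in Norm 1b. The low-oxygen groups did not overlap. A second Stat2 probe set, with a suffixed name, went another way and was above the floor in 2 samples only, at 1071 in Norm 1a and 989 in 4 d 1b. Irf1, a direct target of interferon gamma, lay between 2185 and 3183 on all 9 A arrays, with both 6 d arrays (2185 and 2477) the lowest and the other groups overlapping.

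The antiviral effectors were led by the IFIT proteins, which bind viral RNA and block its translation. Ifit1 read 1403 and 1168 at 10 h, 147 and 255 at 2 d, 308 and 317 at 4 d, 1003 and 686 at 6 d, and 369 in Norm. Its groups in low oxygen did not overlap, and 10 h and 6 d lay above the Norm array. Ifit3 read 3068 and 2821 at 10 h, 740 and 531 at 2 d, 1229 and 532 at 4 d, 1453 and 1211 at 6 d and 1194 in Norm. The 10 h arrays were the highest and the 4 d arrays overlapped both 2 d and 6 d. Ifit2 was dim, at 432 and 378 at 10 h, under the floor in both 2 d arrays, and 383 and 386 at 4 d, so 10 h was not apart from 4 d.

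The myxovirus resistance genes Mx1 and Mx2, GTPases that trap viral nucleocapsids, were barely above the floor. Mx1 was above it only in the 10 h arrays, at 302 and 284, which put 10 h at least 1.24-fold above Norm. Mx2 read 437 and 386 at 10 h and 338 in 4 d 1b and was under the floor in every other A array, at least 1.74-fold above Norm at 10 h. Rsad2 (viperin), which makes a chain-terminating nucleotide, did not follow the group. On A it read 1047 and 864 at 10 h, 1078 and 1079 at 2 d, 684 and 502 at 4 d, 1029 and 1049 at 6 d and 563 in Norm. The 2 d arrays were its highest and the 4 d arrays were low, and on B Rsad2 was lowest at 4 d too, at 1994 and 1775, with all other B arrays between 2714 and 3883. Eif2ak2 (PKR), a kinase that stops translation when it binds double-stranded RNA, read 1280 and 1561 at 10 h, 255 and 876 at 2 d, 948 and 863 at 4 d, 1581 and 1320 at 6 d, and 1176 and 1206 in Norm. Its 2 d samples differed widely from each other, and 2 d 1a was under the floor.

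Bst2 (tetherin), which holds budding virions to the cell, read 4244 and 6057 at 10 h, 3667 and 3269 at 2 d, 4113 and 3642 at 4 d, 5150 and 5680 at 6 d, and 4476 and 6262 in Norm. Its groups at 10 h and 6 d overlapped. Ifitm3, a membrane protein that blocks fusion of viruses, was bright everywhere, at 11008 and 15727 at 10 h, 18011 and 16401 at 2 d, 12866 and 13636 at 4 d, 17243 and 16965 at 6 d and 15060 in Norm. The 10 h samples spanned more than any other group of Ifitm3.

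The 2-5A synthetase family, in mouse including Oasl1 and Oasl2, showed the same order. Oasl2 read 8238 and 6558 at 10 h, 1609 and 1200 at 2 d, 2508 and 3188 at 4 d and 4044 and 3735 at 6 d, with 3034 in Norm 1a and 8113 in Norm 1b. The 4 low-oxygen groups did not overlap, and the Norm samples stood at the levels of 4 d and of 10 h. Oasl1, which restrains translation of Irf7, read 1590 and 1590 at 10 h, 359 and 1384 at 2 d, 652 and 860 at 4 d, 1099 and 695 at 6 d, and 840 and 2127 in Norm. The 2 d samples of Oasl1 spanned most of the range of the low-oxygen arrays.

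Of the RNA sensors, Ddx58 (RIG-I) read 4265 and 3960 at 10 h, 2989 and 2415 at 2 d, 3298 and 3068 at 4 d and 3278 and 3445 at 6 d, with 3676 and 4801 in Norm. The spread was small, with 10 h highest and 2 d lowest of the low-oxygen groups. Ifih1 (MDA5) went 2 ways. On A it read 1148 and 859 at 10 h, 557 and 688 at 2 d, 592 and 637 at 4 d, 909 and 763 at 6 d and 708 in Norm. On C it read 734 and 338 at 10 h, 749 and 982 at 2 d, 726 and 410 at 4 d, 657 and 1156 at 6 d, and 240 and 426 in Norm, so that 2 d was not low there.

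In the ISG15 system, Isg15 encodes the ubiquitin-like modifier and Usp18 the protease that removes it and also damps the interferon receptor. Isg15 read 2209 and 1601 at 10 h, 974 and 1158 at 2 d, 840 and 394 at 4 d, 1487 and 1081 at 6 d and 974 in Norm. Usp18 read 2174 and 1518 at 10 h, 599 and 504 at 2 d, 683 and 672 at 4 d, 928 and 1094 at 6 d and 624 in Norm. For both the 10 h arrays were the highest, and the low-oxygen groups of Usp18 did not overlap.

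**Figure D2:**
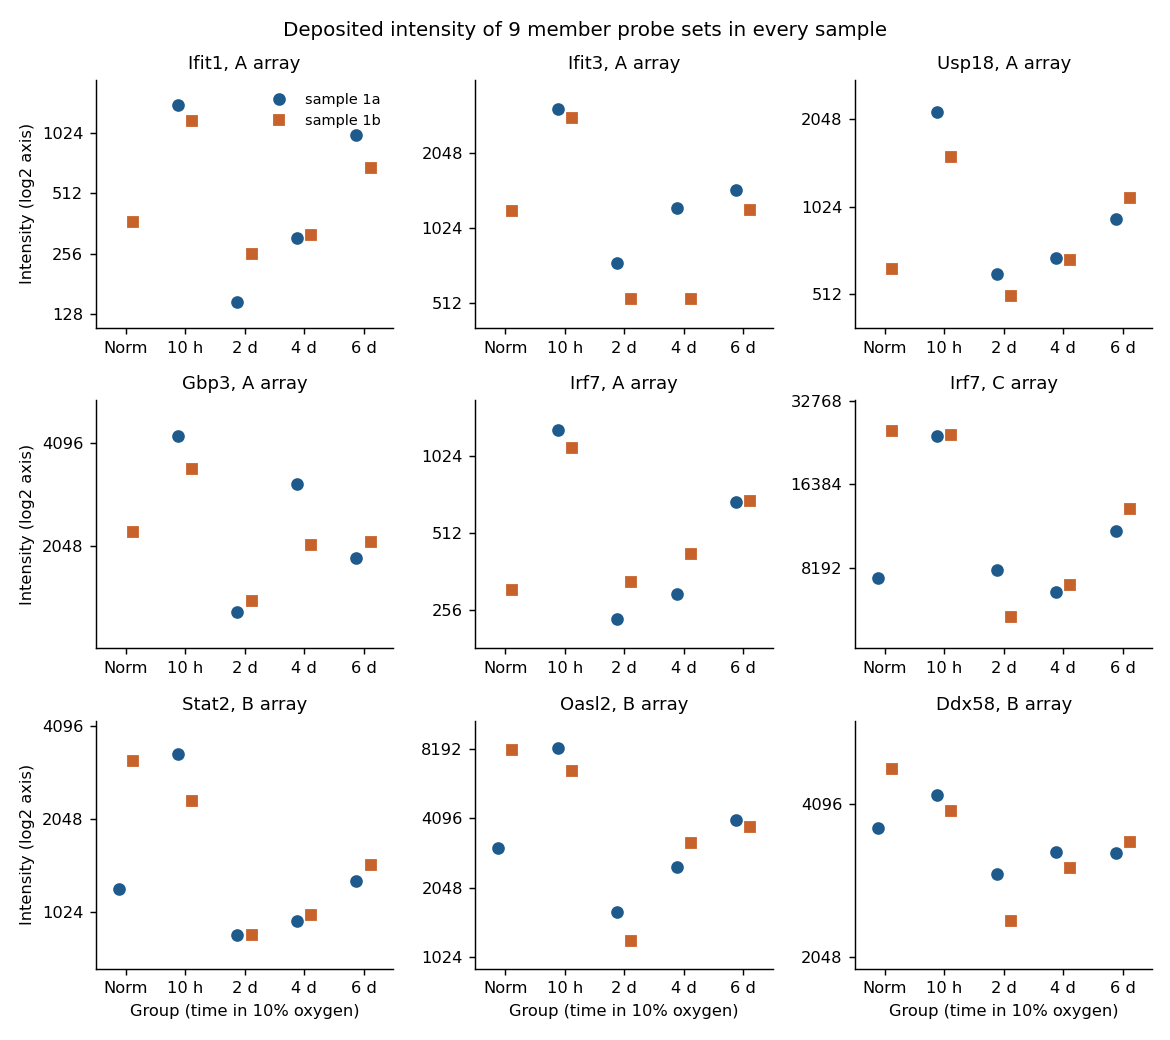
Deposited intensity (y axis, log2 scale) of 9 member probe sets in every sample by group (x axis); circles are samples 1a and squares samples 1b, and A panels hold 1 Norm array. Ifit1, Usp18, Stat2 and Oasl2 have no overlap among the low-oxygen groups, with 10 h highest and 2 d lowest, and the Norm samples of Irf7 on C, Stat2 and Oasl2 lie far apart.

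The interferon-inducible GTPases, which attack the vacuoles of intracellular parasites and bacteria, were split. Gbp3 read 4282 and 3429 at 10 h, 1309 and 1413 at 2 d, 3101 and 2066 at 4 d, 1887 and 2096 at 6 d and 2243 in Norm. Iigp1 read 3193 and 3032 at 10 h, 1303 and 1326 at 2 d, 2626 and 2062 at 4 d, 2513 and 2044 at 6 d and 2366 in Norm. In both the 10 h arrays were highest and the 2 d arrays lowest. Igtp (Irgm3) read 1486 and 1595 at 10 h, 1204 and 922 at 2 d, 1066 and 1113 at 4 d, 1445 and 1320 at 6 d and 841 in Norm. Irgm2 read 2593 and 2950 at 10 h, 2877 and 2156 at 2 d, 2189 and 2395 at 4 d, 3265 and 3082 at 6 d and 1783 in Norm on A, and was above the floor in 2 of 10 arrays on C. Every low-oxygen array of Igtp and Irgm2 on A was above the single Norm array, and the highest group of Irgm2 was 6 d. Irgm1, a regulator of that family, read 1069 and 915 at 10 h, 703 and 1047 at 2 d, 830 and 759 at 4 d, 1157 and 758 at 6 d and 713 in Norm, with 10 h above 4 d and the other low-oxygen groups overlapping. Gbp2 read between 1188 and 2135 on A, with the lowest values, 1642 and 1188, at 2 d, and on C was above the floor only in Norm 1a, at 287, and 2 d 1b, at 300.

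The antigen processing members, the immunoproteasome subunits Psmb8 and Psmb9 and the peptide transporter Tap1, did not show the pattern. On A, Psmb8 lay between 1979 and 3704, Psmb9 between 1241 and 2044 and Tap1 between 1841 and 3190, with 10 h inside the range of the later times in each. On C, Psmb8 read 416 and 224 at 10 h, 544 and 112 at 2 d, 331 and 429 at 4 d, 172 and 143 at 6 d, and 198 and 188 in Norm. The chemokines Cxcl9 and Cxcl10, which draw T cells, reached at most 143 and 150 on any A array, under the floor, and were not tested. Of the rest, Ifi35 read 1591 and 1478 at 10 h against 1010 to 1277 at 2 d and 1328 to 1487 at 6 d, so that 10 h overlapped 6 d. Ifi27 lay between 2098 and 4597 and Trim30a between 207 and 459, with 10 h inside the range of the later times in both. Xaf1, a factor that promotes cell death, was dim on C, at 172 and 282 at 10 h, 65 and 49 at 2 d, 414 and 103 at 4 d, 70 and 241 at 6 d, and 341 and 586 in Norm, and both its Norm samples were above the 10 h samples.

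The comparison of 10 h with the mean of 2 d, 4 d and 6 d sets no Norm level against another and asks whether the early time differed from the later ones. The Norm arrays still enter the estimate of the spread, and in a fit without that group 8 measurements passed, where 0.849% of all probe sets did. In the fit of all groups 5 of the 39 measurements passed the threshold of an adjusted p of 0.05 (limma, Benjamini-Hochberg over all tested probe sets), all higher at 10 h, against 0.651% of all 25801 probe sets in either direction and 0.477% higher. Ifit3 was higher by 1.75 ± 0.29 log2 units (SE, adjusted p = 0.048), Ifit1 by 1.68 ± 0.22 (adjusted p = 0.030), Irf7 on A by 1.55 ± 0.24 (adjusted p = 0.041), Usp18 by 1.33 ± 0.19 (adjusted p = 0.038) and Gbp3 by 1.01 ± 0.17 (adjusted p = 0.048). Irf7 on C, Oasl2 and Stat2 had changes of 1.58 ± 0.37, 1.57 ± 0.31 and 1.41 ± 0.30, and did not pass (adjusted p = 0.098, 0.063 and 0.078). Isg15 (1.03 ± 0.29), Oasl1 (1.04 ± 0.49) and Irf9 (0.85 ± 0.19) did not pass either. The median change was 0.39 on A, with 22 of 25 members higher, and 0.18 on B and C, with 10 of 14 higher, against -0.03 and -0.01 over all genes tested.

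Both 10 h arrays lay above all 6 later arrays in 16 of the 39 measurements, against 6.79% of all probe sets, and below them in none, against 4.82%. The 16 came from 15 genes, namely Irf7 on A and C, Irf9, Stat2, Ifit1, Ifit3, Mx1, Mx2, Oasl1, Oasl2, Ddx58, Isg15, Usp18, Gbp3, Igtp and Iigp1. Mx1 and Mx2 were above the floor on 2 and 3 arrays, both 10 h arrays among them, and so were tested through the group where they were high. Among the 34 measurements above the floor on at least 5 arrays the count was 14, against 7.01% of such probe sets. No antigen processing member was among the 16. At an unadjusted p under 0.05, 17 measurements were called, all higher, against 14.8% of all probe sets. The 5 adjusted calls depended on every low-oxygen sample. No member passed without either sample of 10 h, 2 d or 6 d, Ifit3 alone passed without 4 d 1a, and Mx2 alone without 4 d 1b. The Norm 1b and 4 d 1a samples and the 2 d samples with a high 3'/5' ratio all enter this fit. With 2 d and 6 d alone as the later times, a contrast that averages neither 4 d nor Norm, 7 members passed (those 5, Oasl2 and Iigp1), where 2.55% of all probe sets did. The record numbers of the 2 d and 6 d arrays form 1 run, apart from those of 10 h, 4 d and Norm. Time and this run cannot be told apart in that contrast, and both groups also enter the main one. The comparisons of 4 d with 10 h and of 6 d with 2 d each stay within such a run.

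**Figure D3:**
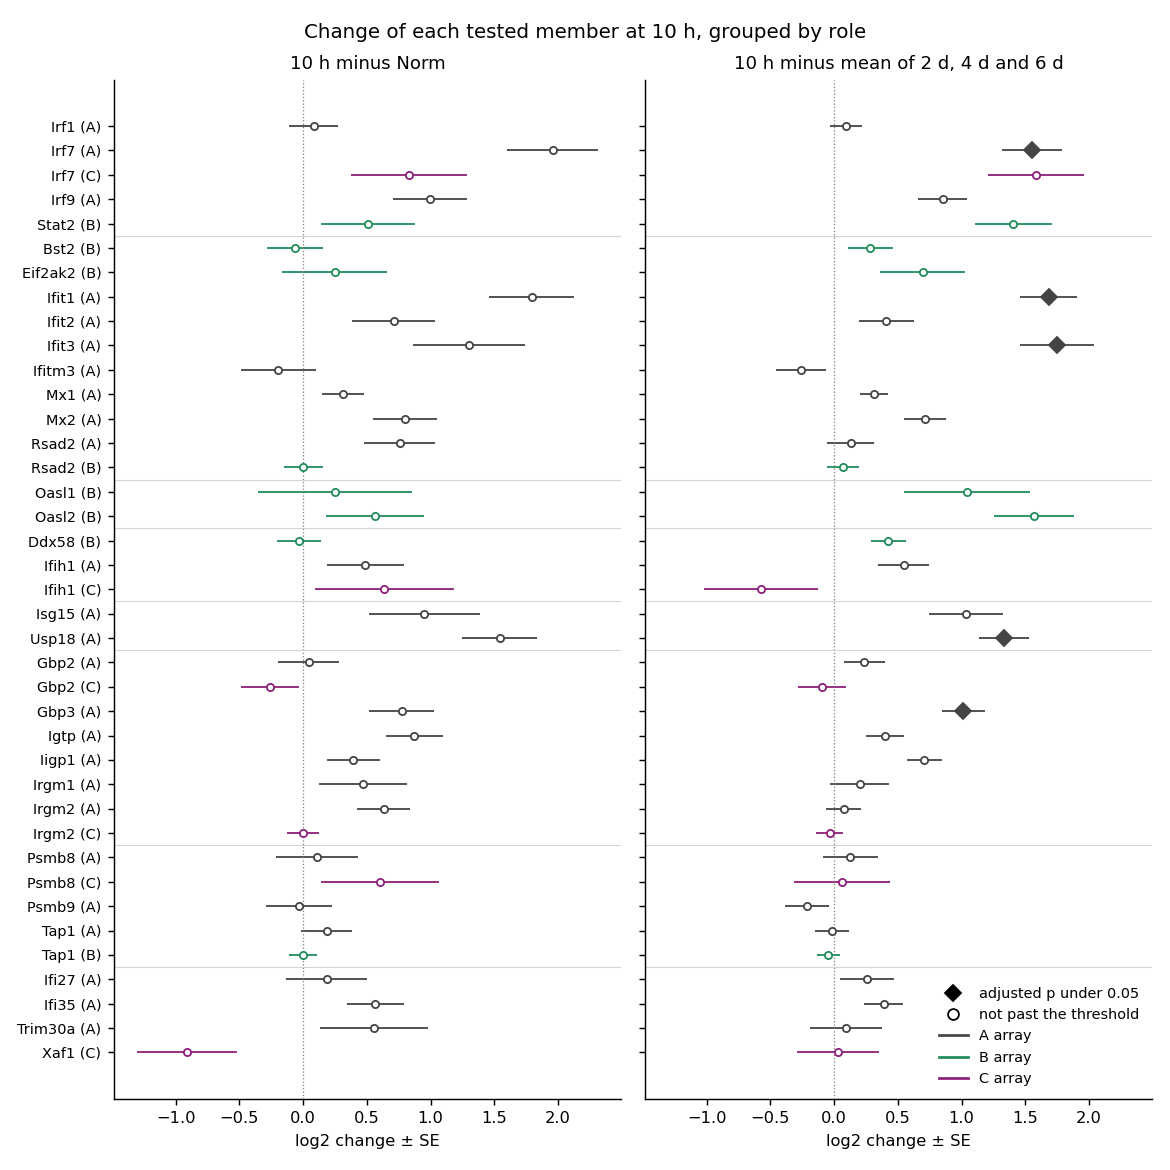
Log2 change (x axis, with the SE of the fit) of the 39 member measurements at 10 h against Norm (left) and against the mean of 2 d, 4 d and 6 d (right), grouped by role from transcription factors at the top to other induced genes; filled diamonds passed an adjusted p of 0.05 and colours give the array type. Irf7, Ifit1, Ifit3, Usp18 and Gbp3 passed against the later times and no member passed against Norm.

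Against 4 d alone, which has no array of the 2 d group, the members at 10 h were also the higher ones. The change from 10 h to 4 d had a median of -0.42 on A, with 22 of 25 lower, and -0.38 on B and C, with 8 of 14 lower. The widest were Ifit1 (-2.03 ± 0.27), Ifit3 (-1.86 ± 0.36), Irf7 on C (-1.84 ± 0.46) and on A (-1.75 ± 0.29), Isg15 (-1.71 ± 0.36), Stat2 (-1.51 ± 0.37) and Usp18 (-1.42 ± 0.24). None passed (adjusted p at least 0.068), where 0.0233% of all probe sets did. At an unadjusted p under 0.05, 18 of 39 were called, all lower at 4 d, against 8.08% of all probe sets. Without the Norm 1b and 4 d 1a samples, Ifit3 passed, where 1.16% of all probe sets did, and the medians were -0.50 on A and -0.45 on B and C.

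Between 2 d and 6 d most members were higher at 6 d. Of the A members 20 of 25 were higher at 6 d, with a median of 0.38, and of the B and C members 9 of 14, with a median of 0.22. The largest were Ifit1 (1.76 ± 0.27), Eif2ak2 (1.50 ± 0.41), Oasl2 (1.48 ± 0.38), Irf7 on A (1.28 ± 0.29) and Ifit3 (1.08 ± 0.36). Eif2ak2 was under the floor in 2 d 1a (255) and above it in 2 d 1b (876), so the size of its difference depends on 1 floored value. Ifit1 was likewise under the floor in 2 d 1a only (147, with 255 in 2 d 1b). None passed the adjusted threshold (0.062% of all probe sets did), and 11 of 39 were called at an unadjusted p under 0.05, all higher, against 13.0% of all probe sets. Both 2 d arrays lay below all other low-oxygen arrays in 8 of 39 measurements (Ddx58, Gbp2, Gbp3, Ifit1, Iigp1, Oasl2, Stat2 and Usp18), against 9.86% of all probe sets, and above them in 1, Rsad2 on A, against 11.7%. The 2 d group also had the high 3'/5' ratio, and its part in these values was not tested.

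Against Norm the picture rested on few arrays. At 10 h, 23 of 25 members on A were higher than the single Norm array, with a median of 0.57 log2 units. The widest were Irf7 (1.96 ± 0.36), Ifit1 (1.80 ± 0.33), Usp18 (1.54 ± 0.29), Ifit3 (1.30 ± 0.44), Irf9 (0.996 ± 0.29) and Isg15 (0.95 ± 0.44). On B and C 8 of 14 were higher, with a median of 0.12, and the lowest were Xaf1 (-0.91 ± 0.39), Gbp2 on C (-0.26 ± 0.23) and Bst2 (-0.06 ± 0.22), beside Ifitm3 on A (-0.19 ± 0.29). Ifitm3 and Bst2 turned to higher without 10 h 1a, Ifitm3 also with quantile normalization and Bst2 without Norm 1b. Gbp2 on C was at the floor in both 10 h arrays and in Norm 1b, so its difference rests on Norm 1a alone, at 287. No member passed the adjusted threshold, as no probe set did (0%), and at an unadjusted p under 0.05 the count was 12 of 39 (11 higher on A, and Xaf1 lower), against 6.11% of all probe sets. The fit assumes that the single Norm array of type A varied as the other groups did. Every A value against Norm, here and at the later times, rests on this array, labelled Norm 1b, which went against its label, and has no counterpart without it.

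On B and C, where both Norm samples were read, they disagreed over these genes. Norm 1b lay above Norm 1a by 1.76 log2 units for Irf7, 1.42 for Oasl2, 1.36 for Stat2 and 1.34 for Oasl1, with 9 of 14 members higher, 2 lower and a median of 0.43. Over all 17409 tested probe sets of these types the median difference was 0, and 9.43% differed by 2-fold or more. Set against Norm 1a alone, 10 h was higher by 1.71 for Irf7, 1.28 for Oasl2 and 1.19 for Stat2. Set against Norm 1b alone, it differed by -0.05, -0.14 and -0.18. The A array labelled Norm 1b, with 307 for Irf7 and 369 for Ifit1, did not show the high level. Whether Oasl2, Stat2 and Irf7 on C were higher at 10 h than in Norm depended on the Norm sample, whereas the comparison with the later times sets no value against it. The median over the 14 members without Norm 1b was 0.22.

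**Figure D4:**
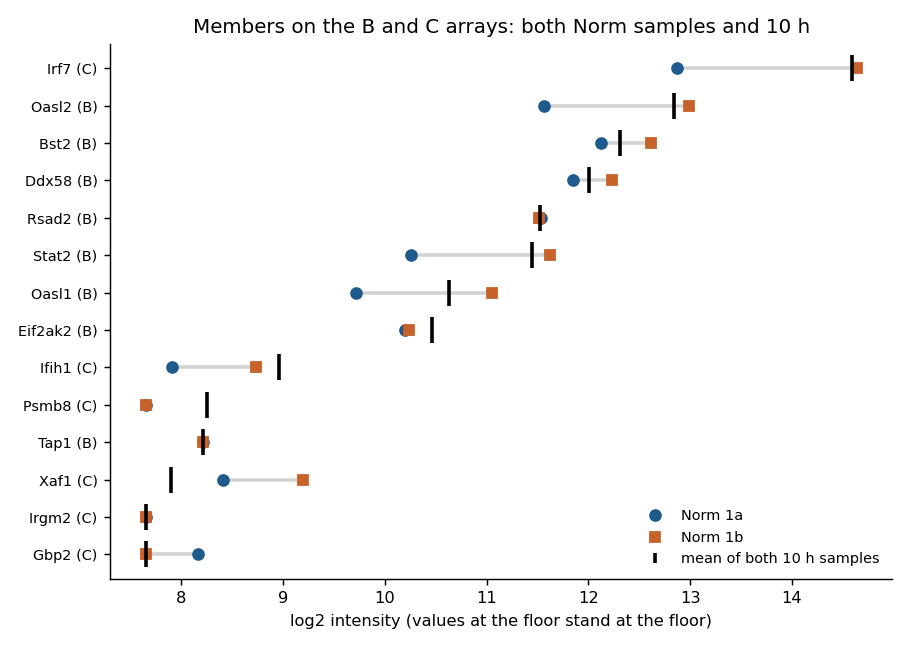
Log2 intensity (x axis) of the 14 members on the B and C arrays in sample Norm 1a (circles), in sample Norm 1b (squares) and as the mean of both 10 h samples (bars). For Irf7, Oasl2 and Stat2 the square lies at the 10 h bar and the circle between 1.19 and 1.71 log2 units below it.

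At 2 d against Norm, the 25 members on A had a median of 0.00 (12 higher, 11 lower) and the 14 on B and C a median of -0.63 (6 higher, 8 lower). The lowest were Oasl2 (-1.84 ± 0.38), Eif2ak2 (-1.22 ± 0.41), Stat2 (-1.18 ± 0.37) and Xaf1 (-1.15 ± 0.39), and the highest were Ifih1 on C (1.42 ± 0.54), Rsad2 on A (0.94 ± 0.28), Psmb8 on C (0.72 ± 0.46), Irgm2 (0.48 ± 0.21), Igtp (0.33 ± 0.22) and Irgm1 (0.27 ± 0.35), the last of which turned to lower without 2 d 1b. Xaf1 was at the floor in both 2 d arrays, so its difference is a lower bound. Psmb8 on C was at the floor in both Norm arrays and in 2 d 1b, so its difference rests on 2 d 1a alone, at 544. Eif2ak2 was under the floor in 2 d 1a (255) and above it in 2 d 1b (876), so the size of its difference depends on 1 floored value. No member passed (Oasl2 had an adjusted p of 0.050), where 1.86% of all probe sets did, and 12 of 39 were called at an unadjusted p under 0.05, against 18.9%. The B and C median was -0.24 without Norm 1b. In log2 units, the 2 d means were 10.44 for Oasl2, 9.76 for Stat2 and 7.65 for Xaf1. Norm 1a lay nearer to them, at 11.57, 10.25 and 8.41, than Norm 1b, at 12.99, 11.62 and 9.19. The size of these 3 differences therefore depended on the Norm sample. At 4 d the medians were 0.06 on A and -0.43 on B and C, with no member past the adjusted threshold (0.00775% of all probe sets) and 3 of 39 called at an unadjusted p under 0.05, against 6.13%. The B and C median was -0.19 without Norm 1b, and the A median was -0.12 without 4 d 1a and -0.08 with each array scaled to a common median.

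At 6 d against Norm, 19 of 25 members on A were higher, with a median of 0.33, led by Ifit1 (1.17 ± 0.33), Irf7 (1.15 ± 0.36), Rsad2 (0.88 ± 0.28), Irgm2 (0.83 ± 0.21) and Trim30a (0.82 ± 0.42). The A median was 0.17 without 6 d 1a, and no A value is left without Norm 1b. On B and C the median was -0.09, and 0.11 without Norm 1b. None passed (0% of all probe sets did), and 9 of 39 were called at an unadjusted p under 0.05, against 9.17% of all probe sets.

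Other genes of the pathway gave the setting. Of 28 further interferon-induced genes tested on A, 20 were higher at 10 h than at the later times and 8 lower, with a median of 0.18, and of 22 on B and C 16 were higher, with a median of 0.27. Ifi204, a DNA sensor of the p200 family, passed (1.22 ± 0.20, adjusted p = 0.047), with a probe set whose suffix marks shared probes. The mono-ADP-ribosyltransferase family genes Parp9 (1.02 ± 0.21) and Parp14 (0.97 ± 0.18) did not pass (adjusted p = 0.069 and 0.056). The widest changes on A in either direction, named after their values were seen, were those of the chemokine gene Ccl5 (1.59 ± 0.33, adjusted p = 0.079) and of Ly6e (-3.05 ± 0.91, adjusted p = 0.19). The Ly6e probe set, which has a suffix, read 431 and 8410 in the 10 h samples, far apart from each other, and 7650 to 33877 at the later times. Among 18 receptor and signalling genes on A, 15 were higher at 10 h and 3 lower, with none past the threshold. At an unadjusted p under 0.05, 6 were higher, against 14.8% of all probe sets in either direction. Socs3, a feedback inhibitor of JAK signalling, had the widest change there (1.58 ± 0.40, adjusted p = 0.13). Another Socs3 probe set, on B, was high at 2 d. It changed by 1.02 ± 0.30 at 2 d against Norm and by -1.39 ± 0.30 at 6 d against 2 d, with neither past the threshold. The changes of the 5 tested interferon genes on A at 10 h against later ran from -0.65 ± 0.25 (Ifnab) to -0.01 ± 0.19 (Ifna2), the last in effect level. None passed the threshold, and 1 was lower at an unadjusted p under 0.05. All 5 probe sets have suffixed names, and Ifna2 read 207 to 387, around the floor. The class I presentation genes B2m (-0.56 ± 0.22) and H2-D1 (-0.44 ± 0.21) did not pass, with 3 of 8 genes on A higher.

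Markers of the other cell types of lung were counted beside the members. For 10 h against the later times, 14.8% of all probe sets had an unadjusted p under 0.05 in either direction. On A at 10 h against the later times, 3 of 5 T and NK cell markers, 3 of 7 B and plasma cell markers, 4 of 8 macrophage markers, 4 of 9 monocyte and neutrophil markers and 1 of 3 dendritic cell markers were higher, and none of these passed (at an unadjusted p under 0.05, 1 monocyte and neutrophil marker was higher and 2 macrophage markers lower). Of 10 endothelial markers 3 were higher and 7 lower, with a median of -0.17, none past the threshold and 1 each way at an unadjusted p under 0.05, and their summed level was 41008 and 55537 at 10 h against 47573 to 64199 later. The endothelial marker Eng was lower on A (-0.60 ± 0.21) but higher on B (0.69 ± 0.13), and neither passed. The summed level of T and NK cell markers was 1366 and 2245 at 10 h against 1151 to 2161 later, that of B and plasma cell markers 4478 and 4307 against 3324 to 6380, and that of macrophage markers 12060 and 11527 against 11117 to 16590. All 8 alveolar epithelial markers were lower, with a median of -0.46 and none past the threshold (4 at an unadjusted p under 0.05), and their summed level was 45500 and 79201 at 10 h against 78682 to 128482 later. All 11 skeletal muscle markers were lower, with a median of -0.20, and Acta1 passed (-2.52 ± 0.30, adjusted p = 0.024). Their summed level was 3849 and 3909 at 10 h, 5368 to 11090 later and 13883 in the Norm array. The part of these tissues in the members' values was not tested.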

How the data were processed

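The data were intensities of Affymetrix MG-U74v2 oligonucleotide arrays, 1 for each probe set of an array, on a linear scale as the authors deposited them. The step from probes to these values is not given in the sources used here. Trimmed means of 800.165 to 800.436 showed arrays brought to a common level, and no further scaling was applied. Of 30 arrays, 29 were used. Gene symbols came from the platform annotation. Log2 intensities of an array type were fitted with 5 group means by lmFit and eBayes with a variance trend (limma 3.58.1, R 4.3.3). P-values are two-sided and adjusted by Benjamini-Hochberg over the 3 types together. A group with all arrays at the floor gives a bound ("at least"). The fit was tested on simulated data. A gene's measurement is a plain probe set before a suffixed one, then the brightest relative to its type.

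The members and lists were chosen with earlier results of these data known. Every array is printed for members that passed and, against Norm at 10 h and 2 d, for the 6 highest and 4 lowest; other lists name genes that passed and up to 3 with the smallest p. The alternatives changed scaling, floor, filter, variance trend, replicate block, samples in the fit, adjustment, array types, probe sets and single samples. The fits without the Norm 1b and 4 d 1a samples, and with 2 d and 6 d alone as later times, and the count of non-overlapping arrays with a stricter filter were added after seeing the data. The arrays' number limits the precision.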

Additional observations from a re-analysis of the deposited data

How the results depend on the processing

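For 10 h against the mean of the later times, where 5 genes passed, beside 0.651% of all probe sets, 3 passed with each array scaled to a common median (0.527% of all) and with no variance trend (0.213%), 1 with the floor at the 20th percentile (Usp18, 0.223%), 1 with no filter on dim probe sets (Mx1, 0.341%), 8 with a filter of at least 5 arrays above the floor (1.22%), 0 on B and C alone (0.586%) and 1 without the Norm 1b and 4 d 1a samples (Ifit3, 0.314%). With the replicate block, the letters 1a and 1b entered as a block, 1 gene passed (Ifit3, adjusted p = 0.0453, 0.147% of all probe sets). The letters pair no animals per the labels, so samples share only a letter. Leaving out 1 sample gave 0 to 7 genes, from 0.00388% to 0.926% of all probe sets. In the fit without 2 d 1a, 1 of 25801 probe sets passed, against 168 with it, so the lost calls were not of the members alone. In every alternative that gave a value, Ifit1, Ifit3, Irf7, Usp18 and Gbp3 stayed higher at 10 h, with adjusted p from 0.0149 to 0.311. At 2 d against Norm, Oasl2 alone passed with quantile normalization (1 of 39 measurements, 2.1% of all probe sets) and with adjustment within an array type (1 of 39, 2.84%). It alone also passed with the filter of at least 5 arrays (1 of 34, 2.93%) and on B and C alone (1 of 14, 3.6%). These counts over 39 and 34 measurements were near the shares of all probe sets. Fits with 1 sample of 2 d or of Norm left out are not counted here, and the size of the Oasl2 difference depended on the Norm sample. For 4 d against 10 h, 1 gene passed with the filter of at least 5 arrays (Ifit1, 0.0945% of all probe sets) and 1 without the Norm 1b and 4 d 1a samples (Ifit3, 1.16%), and 0 to 1 when 1 sample was left out, as for 6 d against 2 d. At 10 h, 4 d and 6 d against Norm, no member passed in any alternative run.

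Median changes moved as follows. On B and C, with the filter of at least 5 arrays, they were -0.922 at 2 d and -0.633 at 4 d against Norm, -0.644 for 4 d against 10 h and 0.424 for 10 h against later times. With the floor at the 20th percentile they were -0.312 at 6 d against Norm, 0.373 for 10 h against later times and, on A, -0.499 for 4 d against 10 h. Without the Norm 1b and 4 d 1a samples, they were -0.239, -0.172 and 0.111 at 2 d, 4 d and 6 d against Norm on B and C, and -0.499 on A for 4 d against 10 h. With a common median, A gave -0.0776 at 4 d and 0.246 at 6 d against Norm and -0.540 for 4 d against 10 h. The replicate block gave 0.239 on A at 6 d against Norm. Leaving out 1 sample gave, on A, 0.515 to 0.647 at 10 h, -0.119 to 0.115 at 4 d and 0.172 to 0.362 at 6 d against Norm, -0.499 to -0.382 for 4 d against 10 h, 0.299 to 0.474 for 6 d against 2 d and 0.311 to 0.408 for 10 h against later times. On B and C it gave -0.846 to -0.222 at 2 d, -0.613 to -0.187 at 4 d and -0.149 to 0.111 at 6 d against Norm. Signs turned at 10 h against Norm for Ifitm3 (0.205 with quantile normalization, -0.452 to 0.0625 with 1 sample left out, highest without 10 h 1a) and Bst2 (0.180 without Norm 1b and 4 d 1a, and -0.319 to 0.194 with 1 sample left out, positive without Norm 1b, 0.180, and without 10 h 1a), and at 2 d for Irgm1 (-0.0202 to 0.554 with 1 sample left out, negative without 2 d 1b). The cause was not tested. Values under the floor have no order.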
